A study of Macaca mulatta with 30 samples.

Results

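The genes described are 8 adipocyte genes of the rhesus macaque, FABP4, LEP, CIDEC, ADIPOQ, PLIN1, LPL, PLIN4 and LIPE, named by symbol and not by any threshold on their values. All 8 are among the 21292 gene rows of the abundance table, each once, and all 8 passed the filter for testing (at least 1 TPM in at least 6 libraries), as did 13550 genes in all. TPM is a level corrected for transcript length and scaled to the same total in every library. RNA was sequenced from liver, pancreas and 3 salivary glands (parotid, submandibular and sublingual) of 6 Macaca mulatta, giving 1 library for each of the 5 tissues of each animal and 30 libraries in all. Each tissue group thus holds the same 4 females (animals 1 to 4) and 2 males (animals 5 and 6), all sampled from flash-frozen tissue. The labels name no treatment or genotype and give no ages. The parotid of animal 3 was the right gland and the other parotids were left glands.

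White adipocytes store triglyceride in 1 large droplet, release fatty acids from it and secrete hormones. The droplet is coated by perilipins and CIDE proteins, lipoprotein lipase on nearby capillaries frees fatty acids for uptake, and hormone-sensitive lipase helps to break the stored fat down again. Salivary glands and pancreas can hold fat cells between their lobules, while the liver stores its own fat inside hepatocytes. ADIPOQ, PLIN1, LEP and CIDEC are the more adipocyte-restricted members. FABP4 and LPL are also made by capillary endothelium, macrophages or muscle, PLIN4 by muscle, and LIPE by islet and steroid-producing cells.

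Libraries of animal 4 went against their tissue labels. The library labelled pancreas of animal 4 held 4497 TPM of 12 measured acinar enzyme genes, while the pancreas of the other 5 animals held 202707 to 408942 TPM. The library labelled submandibular of animal 4 held 1771 TPM of 8 salivary secretory genes, while the other 5 submandibular libraries held 243472 to 335141 TPM. The sublingual library of animal 4 was also low in those salivary genes, at 3619 TPM, with the other 5 at 16811 to 126964 TPM. The parotid and liver libraries of animal 4 lay within the range of the other animals for the salivary genes (109910 TPM) and just above it for the liver genes (151070 TPM). Medians, the limma values named and gene list counts are therefore also given without animal 4. Depth is not known from TPM, the 10 most abundant genes took 11.1% to 81.4% of a library, and 8477 to 13515 genes reached 1 TPM.

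The summed level of the 8 genes separated 3 libraries from the other 27. It was 18764 TPM (1.88% of all TPM) in the pancreas library of animal 4, 8819 TPM (0.882%) in its submandibular library and 1801 TPM (0.180%) in the pancreas of animal 3. The other 27 libraries ranged from 11.2 to 280 TPM (0.00112% to 0.0280%). In bulk tissue a small number of fat cells and a low level of RNA per fat cell cannot be told apart, so these sums are not counts of cells. They are levels of RNA of the 8 genes. Because FABP4, LPL, PLIN4 and LIPE are also made by other cells, the sums are not levels of adipocyte RNA alone. The share from other cells was not tested.

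**Figure D1:**
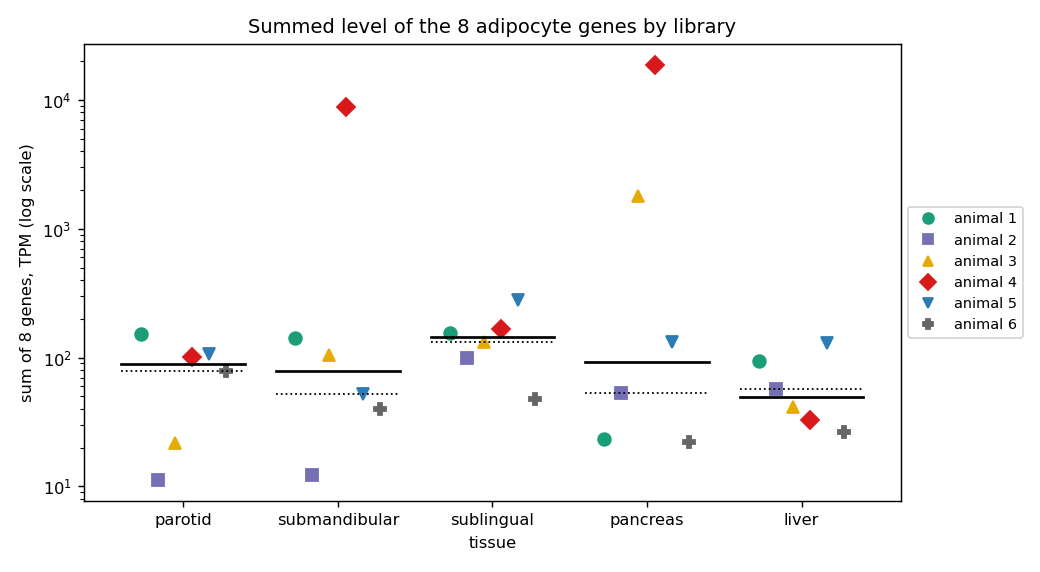
Summed TPM of FABP4, LEP, CIDEC, ADIPOQ, PLIN1, LPL, PLIN4 and LIPE (log axis) in each of the 30 libraries, by tissue, with 1 symbol per animal, a solid line at the median of 6 animals and a dotted line at the median without animal 4. The pancreas and submandibular libraries of animal 4 (18764 and 8819 TPM) and the pancreas of animal 3 (1801 TPM) lie above the other 27, none of which exceeds 280 TPM.

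In the parotid the sum of the 8 genes ranged between 11.2 TPM (animal 2) and 151 TPM (animal 1), with a median of 89.2 TPM, or 78.2 TPM without animal 4. In the submandibular gland without animal 4 it ranged between 12.2 TPM (animal 2) and 143 TPM (animal 1), with a median of 51.7 TPM, and with animal 4 the median was 78.6 TPM. The sublingual gland ranged between 47.5 TPM (animal 6) and 280 TPM (animal 5), with a median of 144 TPM, or 132 TPM without animal 4. All 3 glands therefore overlapped once animal 4 was left out, and no gland library other than the submandibular of animal 4 reached 300 TPM.

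The pancreas spanned the widest range. Its lowest library, animal 6, held 22.3 TPM and its highest, animal 4, held 18764 TPM, with a median of 92.0 TPM. Without animal 4 the median was 52.7 TPM, and animal 3 (1801 TPM) remained 1 library above the other 4, which ranged from 22.3 to 131 TPM. In the liver, the tissue with the lowest median over 6 animals, the sum ranged from 26.2 to 130 TPM with a median of 49.5 TPM (57.5 TPM without animal 4).

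The order of the tissues by this sum depended on the scaling, the animals and the genes taken. On TPM without animal 4 it ran sublingual, parotid, liver, pancreas, submandibular, and neighbours in that order had overlapping ranges. After trimmed-mean (TMM) scaling, which corrects for the share taken by a few very abundant secretory genes, the medians without animal 4 were 86.5 in parotid, 86.3 in submandibular, 84.4 in sublingual, 71.1 in pancreas and 39.5 in liver. On that scale the 3 glands were nearly level and the liver was lowest. Relative to all genes except the 100 most abundant, the medians without animal 4 were 350 in submandibular, 285 in sublingual, 237 in pancreas, 176 in parotid and 97.4 in liver. The sublingual gland was thus first on TPM only, while the liver was last under both other scalings. Its first place on TPM also needed FABP4 in the sum. For the 7 members without FABP4, the TPM median over 6 animals was 38.8 in parotid and 33.8 in sublingual. Without animal 4 those medians were 38.1 in parotid, 32.7 in sublingual, 25.6 in liver, 20.8 in submandibular and 15.1 in pancreas.

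The hormone genes come first, and each pair of medians gives the value over 6 animals and then without animal 4. ADIPOQ encodes adiponectin, a hormone secreted by fat cells. It was 0.08 to 4.78 TPM in parotid (medians 1.77 and 1.62), 0.46 to 9.07 TPM in sublingual (medians 2.72 and 2.59) and 0.09 to 2.98 TPM in liver (medians 0.69 and 0.79). It was 0.16 to 438 TPM in submandibular (medians 2.91 and 1.09), where animal 4 was highest and the next library, animal 3, was at 6.72 TPM. It was 0.06 to 328 TPM in pancreas (medians 2.67 and 2.37), with animal 3 second at 88.8 TPM. ADIPOQ reached 1 TPM in 18 of 30 libraries, the fewest of the 8 genes, and all 5 tissues overlapped.

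LEP encodes leptin, which signals the size of the fat store to the brain. Its levels were 0.14 to 13.1 TPM in parotid (medians 2.07 and 1.90), 0.42 to 19.7 TPM in sublingual (medians 7.0 and 3.79) and 0.46 to 15.5 TPM in liver (medians 2.01 and 2.27). In submandibular LEP ranged from 0.35 TPM to 713 TPM (medians 2.89 and 2.85) and in pancreas from 0.68 TPM to 4160 TPM (medians 9.80 and 1.33), both maxima being animal 4. In the pancreas library of animal 4, LEP was the 35th most abundant of all genes. The pancreas of animal 3 stood lower for LEP (42.5 TPM), with animal 5 next at 18.3 TPM. Without animal 4 the highest submandibular LEP was 6.70 TPM, the highest sublingual LEP 17.7 TPM and the lowest liver LEP 0.95 TPM. The pancreas had the highest LEP median with animal 4 and the lowest without it.

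Of the droplet coat genes, PLIN1 and CIDEC were highest in the 3 libraries with the highest sums, while PLIN4 was not high in the pancreas of animal 3. PLIN1 encodes perilipin 1, which shields the droplet from lipases. In the liver PLIN1 ran from 2.83 to 12.01 TPM (medians 8.04 and 7.46), and in parotid from 0.60 to 4.58 TPM (medians 2.88 and 2.49). In the sublingual gland it ran from 0.52 to 7.62 TPM (medians 4.52 and 4.52). The PLIN1 level in submandibular was 0.79 to 660 TPM (medians 2.41 and 1.57) and in pancreas 1.05 to 323 TPM (medians 3.01 and 1.83), with animal 4 highest in both. The next libraries were 3.56 TPM in submandibular and 35.5 TPM, animal 3, in pancreas. The liver had the highest median for PLIN1 with and without animal 4, although its range overlapped that of every other tissue.

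PLIN4 encodes a perilipin of newly formed droplets. It was 2.53 to 8.18 TPM in liver (medians 4.86 and 5.14), 0.32 to 16.8 TPM in parotid (medians 2.93 and 2.87) and 0.55 to 22.2 TPM in sublingual (medians 2.16 and 1.69). It was 0.45 to 325 TPM in submandibular (medians 1.94 and 1.89) and 1.04 to 315 TPM in pancreas (medians 2.69 and 1.37). PLIN4 differed from the other members in the pancreas of animal 3, where it was 6.76 TPM, close to the 4.01 TPM of animal 5. Without animal 4 the highest submandibular PLIN4 was 2.38 TPM and the lowest liver PLIN4 3.79 TPM. Its highest values outside animal 4 were in the sublingual gland of animal 5 and the parotid of animal 6.

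CIDEC encodes a protein that fuses small droplets into larger ones. CIDEC was 0.80 to 11.2 TPM in parotid (medians 5.90 and 4.20), 2.89 to 18.5 TPM in sublingual (medians 7.53 and 6.97) and 2.79 to 13.6 TPM in liver (medians 3.82 and 3.95). In submandibular it ran from 0.68 to 1055 TPM (medians 5.59 and 3.69) and in pancreas from 0.87 to 1338 TPM (medians 6.52 and 3.04). The CIDEC level in the pancreas of animal 3 was 118 TPM, with animal 5 next. The next submandibular library after animal 4 was at 9.71 TPM.

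The genes of fatty acid release and transport complete the set. LIPE encodes hormone-sensitive lipase. LIPE was 0.33 to 4.45 TPM in parotid (medians 3.14 and 2.99), 0.72 to 10.9 TPM in sublingual (medians 5.56 and 4.47) and 1.64 to 4.32 TPM in liver (medians 2.91 and 3.79). It was 0.61 to 409 TPM in submandibular (medians 2.21 and 1.25) and 1.06 to 421 TPM in pancreas (medians 3.11 and 1.66), where animal 3 was at 53.9 TPM. Animal 4 was the highest in these last 2 tissues by a wide margin, and the rest overlapped the liver. The next submandibular library was at 3.42 TPM.

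LPL encodes lipoprotein lipase. Its liver levels were narrow, from 1.01 to 3.77 TPM (medians 1.97 and 2.02), and they were lower than in the same animal's submandibular gland in all 6 animals. In submandibular LPL was 2.24 to 571 TPM (medians 7.42 and 5.52), in parotid 1.20 to 9.34 TPM (medians 5.53 and 4.26) and in sublingual 0.75 to 17.7 TPM (medians 5.31 and 5.97). In pancreas LPL was 2.00 to 331 TPM (medians 5.05 and 4.50), with animal 3 at 47.1 TPM. With animal 4 left out, the highest submandibular LPL was 11.2 TPM and the lowest liver LPL 1.75 TPM. Submandibular and liver still overlapped as groups, because the lowest submandibular value lay below the highest liver value.

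FABP4, which encodes the fatty acid carrier protein of adipocytes, was the most abundant of the 8 genes in all 30 libraries and made up 38.2% to 86.7% of their sum in the 27 libraries. It was 6.84 to 109 TPM in parotid (medians 49.6 and 38.7), 41.2 to 176 TPM in sublingual (medians 106 and 103) and 10.1 to 75.5 TPM in liver (medians 25.7 and 35.5). FABP4 ran from 5.76 to 4649 TPM in submandibular (medians 50.8 and 30.9) and from 12.9 to 11548 TPM in pancreas (medians 59.6 and 37.5). With animal 4 left out, the highest FABP4 level was 106 TPM in submandibular and 1408 TPM in pancreas, the latter animal 3. It was the 6th most abundant gene in the pancreas library of animal 4, the 23rd in its submandibular library and the 78th in the pancreas of animal 3.

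**Figure D2:**
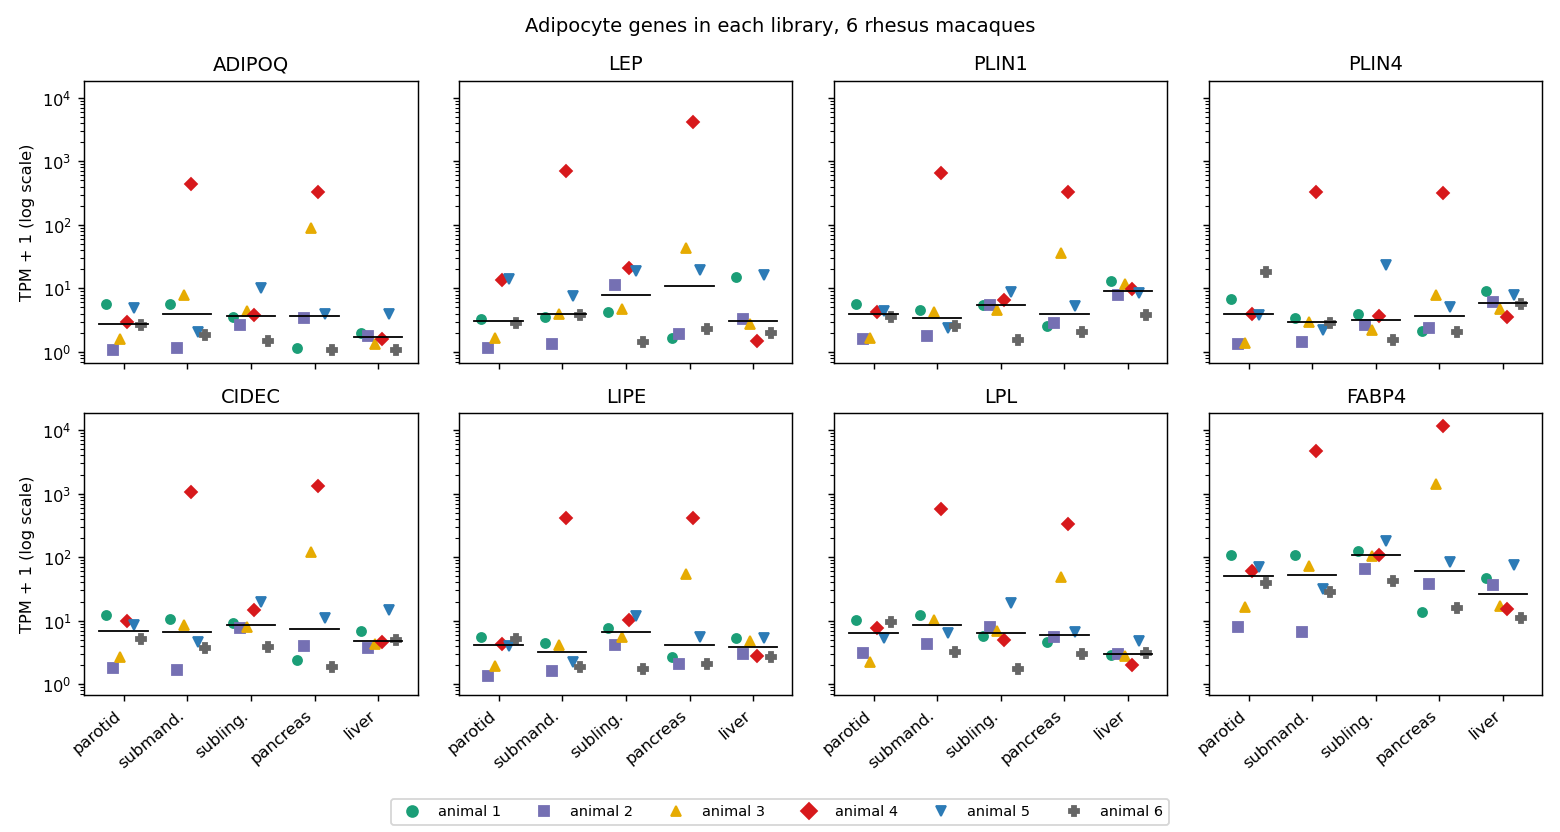
TPM + 1 (log axis) of each of the 8 genes by tissue, 1 panel per gene, 1 symbol per animal, with a bar at the median of 6 animals. In every panel animal 4 is highest in submandibular and pancreas, and the pancreas of animal 3 is second, though for PLIN4 it is only 6.76 TPM.

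Against the median of the other 5 animals, on log2(TPM + 1), the 8 genes were higher in the pancreas library of animal 4 by 5.91 (LPL) to 10.80 (LEP), with a median of 7.18. The same difference had a median of 1.04 over all 13550 genes tested. In the submandibular library of animal 4 the members were higher by 6.45 (LPL) to 8.01 (PLIN1), with a median of 7.52 against 1.83 over all genes. LPL was thus the least raised member in both libraries, while the most raised was LEP in one and PLIN1 in the other. In the pancreas of animal 3 the differences ran from 1.71 (PLIN4) to 5.19 (FABP4), with a median of 4.30 against 0.56 over all genes.

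Rank alone is a weak description here, because these libraries were highest for many genes. Animal 4 was highest of 6 for 8 of 8 members in pancreas, as it was for 66.1% of all genes tested. In submandibular it was highest for 8 of 8 members and for 87.5% of all genes. Animal 3 was second in pancreas for 8 of 8 members and for 56.1% of all genes. The size of the difference, and not the rank, is what set the members apart from the median gene.

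Among the other libraries, animals at the ends of the range were shared by most members within a gland. In the parotid, animal 1 was highest for 6 of 8 members, all but LEP and PLIN4, and for 4.46% of all genes. Animal 2 was lowest there for 7 of 8 members, all but LPL, and for 17.8% of all genes. In the submandibular gland animal 2 was lowest for 7 of 8 members, against 39% of all genes. The parotid and submandibular glands of animal 2 thus held the lowest sums of their tissues, 11.2 and 12.2 TPM, while its sublingual sum was 99.3 TPM. In the sublingual gland animal 5 was highest for 7 of 8 members, all but LEP, against 39.6% of all genes, and animal 6 was lowest for 8 of 8, against 64% of all genes. The liver of animal 5 was highest for 5 of 8 members, against 9.56% of all genes, and that of animal 1 for the other 3, against 28% of all genes.

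Skeletal muscle genes were high in some of these libraries, and PLIN4 and LPL were not raised in all of them. The 8 measured muscle genes summed to 101657 TPM in the parotid of animal 6, where PLIN4 was 16.8 TPM and LPL 8.40 TPM. They summed to 19592 TPM in the sublingual gland of animal 5, where PLIN4 was 22.2 TPM and LPL 17.7 TPM. The sum was 8219 TPM in the sublingual gland of animal 1 and 7966 TPM in the parotid of animal 1, with PLIN4 at 2.97 and 5.81 TPM. LPL was 4.66 and 9.34 TPM in the same libraries. In the other 8 parotid and sublingual libraries the muscle sum was at most 365 TPM and PLIN4 at most 2.98 TPM. LPL ran from 0.75 to 7.11 TPM there, so the sublingual gland of animal 1 lay within their range for both genes. The part of muscle tissue in the PLIN4 and LPL values was not tested.

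Tissue differences were tested with limma on log2(TPM + 1), with the animal as a block and Benjamini-Hochberg adjustment over all 13550 genes. LPL was the only member called at an adjusted p under 0.05, in the submandibular gland against the liver. Its log2 fold change was 2.20 (SE 0.87, n = 6 animals per tissue, adjusted p = 0.0378), and LPL was higher in the submandibular gland in 6 of 6 animals. In that comparison 5.68% of all genes were called higher and 50.7% in either direction, so a single member called among 8 is no more than a description of LPL. Without animal 4 the LPL difference was 1.01 (SE 0.60, adjusted p = 0.131), and the call was also lost when animal 1 (adjusted p = 0.0846), animal 2 (0.0531) or animal 3 (0.0754) was left out. It was lost as well without the animal block (adjusted p = 0.0607) and without the filter on low genes (adjusted p = 0.0674).

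In the other 9 comparisons limma called 0 of 8 members with 6 animals. Against the liver, the share of all genes called was 58% for parotid, 31.5% for sublingual and 30.4% for pancreas. Against the pancreas it was 15.8% for parotid, 9.71% for submandibular and 13.9% for sublingual. Between glands it was 0.347% for parotid against submandibular, 41.5% for parotid against sublingual and 27.9% for submandibular against sublingual. At an unadjusted limma p under 0.05 the pancreas against the liver had 3 of 8 members, LPL, ADIPOQ and FABP4, beside 39.8% of all genes. The other 8 comparisons had 0. Without animal 4 the pancreas against the liver had 0 members at that threshold, beside 55.7% of all genes. Parotid against liver then had 1 (71.5%) and submandibular against liver 2 (76.3%). The 4 comparisons against the liver share its 6 libraries, and the other comparisons likewise share tissues. The standard error of PLIN1 against the liver was 0.88 with animal 4 and 0.53 without it, so a lack of calls does not show that tissues were alike.

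Against the liver, the fitted values of ADIPOQ and PLIN1 had opposite signs in all 3 glands and the same sign in pancreas, and none of them passed the test. In parotid the log2 fold change was 0.59 for ADIPOQ (SE 1.00, adjusted p = 0.622) and -1.43 for PLIN1 (SE 0.88, adjusted p = 0.163). In submandibular it was 1.90 for ADIPOQ (adjusted p = 0.114) and -0.25 for PLIN1 (adjusted p = 0.832). In sublingual it was 1.04 for ADIPOQ (adjusted p = 0.479) and -0.83 for PLIN1 (adjusted p = 0.527), with ADIPOQ higher in 6 of 6 animals and PLIN1 higher in 1 of 6. In pancreas it was 2.31 for ADIPOQ (adjusted p = 0.0831) and 0.21 for PLIN1 (adjusted p = 0.882), with 3 of 6 and 2 of 6 animals higher. When animal 4 was left out, ADIPOQ was 0.53 in parotid, 0.66 in submandibular, 0.99 in sublingual and 1.24 in pancreas (adjusted p from 0.175 to 0.533), and PLIN1 in pancreas was -0.76 (adjusted p = 0.240). The submandibular sign of PLIN1 turned to positive under TMM scaling (0.46), quantile normalization (0.58) and scaling without the 100 most abundant genes (0.89).

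Against the pancreas, ADIPOQ was -1.73 in parotid (adjusted p = 0.216) and PLIN1 -1.64 (adjusted p = 0.187). In submandibular against pancreas ADIPOQ was -0.41 (adjusted p = 0.837) and PLIN1 -0.46 (adjusted p = 0.787), and both turned positive on scaling without the 100 most abundant genes (0.29 and 0.07). In sublingual against pancreas ADIPOQ was -1.27 (adjusted p = 0.467) and PLIN1 -1.04 (adjusted p = 0.507). In each of these comparisons the pancreas mean rested on animals 3 and 4, whose ADIPOQ was 88.8 and 328 TPM while the other 4 animals were at 2.97 TPM or less. When animal 4 was left out, ADIPOQ and PLIN1 were -0.71 and -0.72 in parotid, -0.58 and -0.75 in submandibular, and -0.24 and -0.13 in sublingual (adjusted p from 0.273 to 0.875).

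Between glands, ADIPOQ was -1.31 in parotid against submandibular (adjusted p = 1) and PLIN1 -1.19 (adjusted p = 1), with 3 of 6 animals higher for each. In parotid against sublingual ADIPOQ was -0.45 (adjusted p = 0.720) and PLIN1 -0.60 (adjusted p = 0.581), both of which turned positive under TMM scaling (0.27 and 0.20). In submandibular against sublingual ADIPOQ was 0.86 (adjusted p = 0.534) and PLIN1 0.58 (adjusted p = 0.642). With animal 4 left out, ADIPOQ and PLIN1 were -0.13 and 0.031 in parotid against submandibular and -0.46 and -0.59 in parotid against sublingual. The differences of submandibular against sublingual then became -0.33 and -0.63, so the higher mean of the submandibular gland was that of animal 4.

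**Figure D3:**
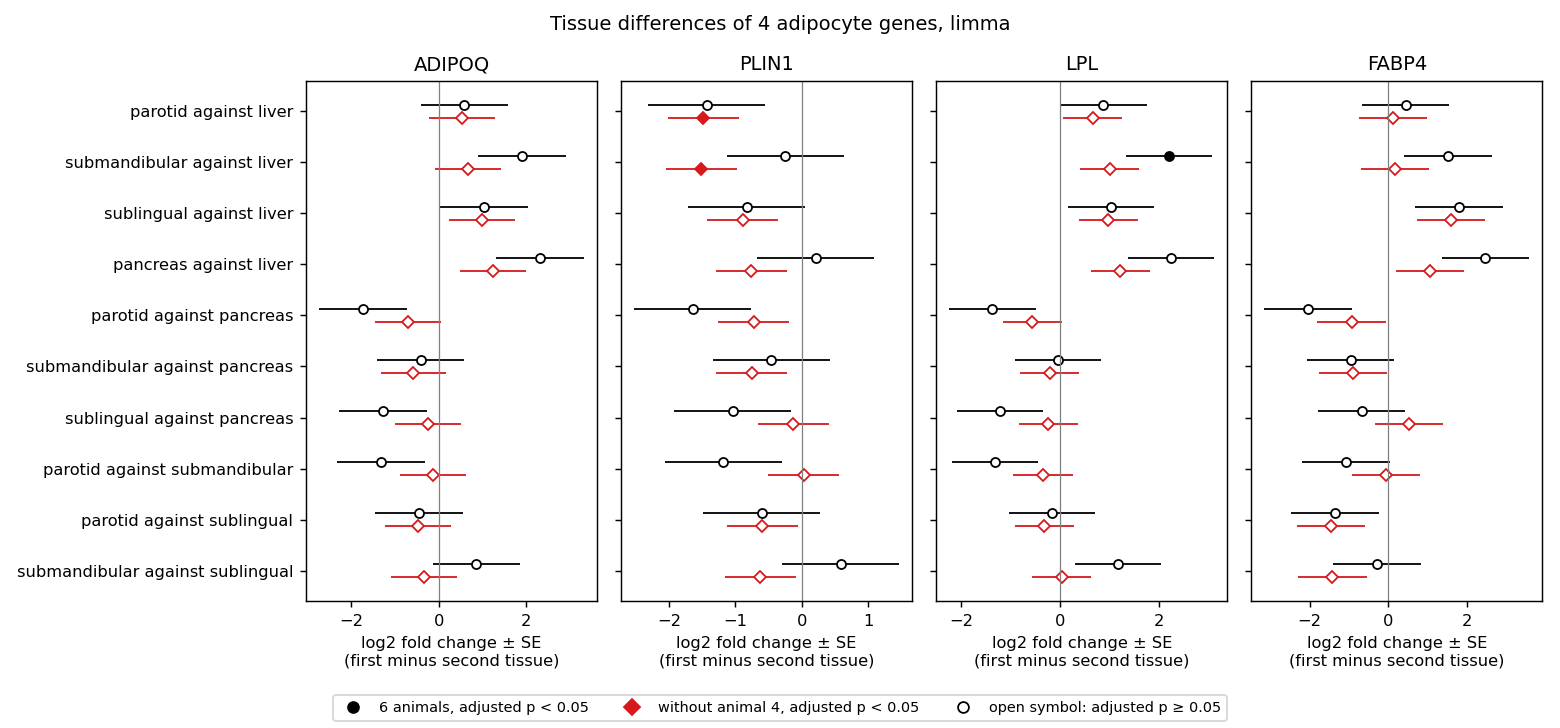
Log2 fold changes with standard errors (first tissue minus second) of ADIPOQ, PLIN1, LPL and FABP4 in the 10 tissue comparisons, fitted with 6 animals (circles) and without animal 4 (diamonds), with filled symbols for an adjusted p under 0.05. Filled symbols are LPL in submandibular against liver with 6 animals (2.20), and PLIN1 in parotid (-1.48) and submandibular (-1.52) against liver without animal 4.

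Without animal 4, limma called PLIN1 and PLIN4 in some comparisons with the liver. PLIN1 was lower by a log2 fold change of -1.48 in parotid (SE 0.53, n = 5, limma adjusted p = 0.0183) and of -1.52 in submandibular (SE 0.53, n = 5, limma adjusted p = 0.0146). PLIN4 was lower in submandibular by -1.40 (SE 0.61, n = 5, limma adjusted p = 0.0435). In sublingual neither was called (PLIN1 -0.89, adjusted p = 0.208, and PLIN4 -0.76, adjusted p = 0.359). Of all genes, 63.2% were called lower in parotid and 68.5% in submandibular in those fits, against 1 and 2 of 8 members. The median log2 fold change over all genes was -0.92 and -1.06, within about 1 standard error of the PLIN1 values, and whether PLIN1 or PLIN4 differed from the median gene was not tested.

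These perilipin calls were lost under TMM scaling. Over the 5 animals without animal 4, PLIN1 was then -0.50 in parotid (adjusted p = 0.401) and -0.43 in submandibular (adjusted p = 0.464), and PLIN4 was -0.39 in submandibular (adjusted p = 0.576). With 6 animals, TMM scaling moved PLIN1 in parotid from -1.43 to -0.52 (adjusted p = 0.586) and in submandibular from -0.25 to 0.46 (adjusted p = 0.620). The median over all genes moved with it, from -0.84 to 0.02 in parotid and from -0.70 to -0.01 in submandibular. The sign of PLIN1 in submandibular against liver thus depended on both the scaling and animal 4.

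More members passed the test against the liver under TMM scaling, and part of those calls rested on animal 4. With 6 animals, FABP4 (2.47, adjusted p = 0.0395), ADIPOQ (2.26, adjusted p = 0.0373) and LPL (2.89, adjusted p = 0.00119) were called higher in submandibular than in liver, where 21.9% of all genes were called higher. The same 3 genes were called in pancreas against liver (FABP4 2.89, ADIPOQ 2.30 and LPL 2.44, adjusted p from 0.00624 to 0.0423), where 15.4% of all genes were. LPL was called in parotid against liver (1.74, adjusted p = 0.0407), where 21% of all genes were.

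Under TMM scaling without animal 4, LPL was still called higher than in the liver in 3 tissues. Its log2 fold change was 1.56 in parotid (adjusted p = 0.0164), 2.07 in submandibular (adjusted p = 0.00205) and 1.61 in pancreas (adjusted p = 0.0156). Of all genes, 22.2%, 22.8% and 16.4% were called higher in those fits. FABP4 and ADIPOQ were not called there, at 1.53 (adjusted p = 0.134) and 1.33 (adjusted p = 0.140) in submandibular and 1.70 (adjusted p = 0.116) and 1.40 (adjusted p = 0.141) in pancreas.

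When only the 12 libraries of sublingual and liver were fitted, so that the 3 libraries with the highest sums did not enter, FABP4 (1.81, adjusted p = 0.00157), ADIPOQ (1.04, adjusted p = 0.00529) and LPL (1.03, adjusted p = 0.0462) were called higher in sublingual and PLIN1 (-0.83, adjusted p = 0.0394) lower. In that fit 33.3% of all genes were called in either direction. With animal 4 also left out, FABP4 alone was called there (1.59, adjusted p = 0.00448), with 26.9% of all genes, and ADIPOQ did not pass the filter. Fitted in the same way over 5 animals, PLIN1 was called lower than liver in parotid (71.8% of all genes called in either direction). In submandibular LPL was called higher than liver and PLIN1, PLIN4 and LIPE lower (84.1%). In pancreas LPL was called higher and PLIN4 lower (53.9%).

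The liver differed from the other tissues in the proportions of the members. PLIN1 per ADIPOQ, a ratio of 2 TPM values, ran from 2.51 to 34.6 in the liver (median 13.4), against medians between 1.197 and 1.44 in the other 4 tissues. Without animal 4 its liver median was 12.3, against 1.11 to 1.41 elsewhere. PLIN1 per FABP4 ran from 0.0988 to 0.689 in liver (median 0.269), against medians of 0.0401 to 0.0524 elsewhere (0.258 against 0.0369 to 0.0512 without animal 4). The liver ranges of the first ratio overlapped those of parotid, submandibular, sublingual and pancreas, whose highest values were 7.75, 5.05, 2.70 and 17.6. The highest values in parotid and submandibular were those of animal 2, with ADIPOQ at 0.08 and 0.16 TPM, and the highest in pancreas was that of animal 6, with ADIPOQ at 0.06 TPM. The tissue difference in these ratios, chosen after the values were seen, was not tested.

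Leptin varied by animal relative to FABP4. LEP per FABP4 was 0.153 in the library labelled submandibular of animal 4 and 0.360 in the one labelled pancreas, both of which lacked their tissue's marker levels. It was 0.206 in the parotid of animal 4 and 0.181 in its sublingual library, and it ran from 0.1003 to 0.223 in the glands and pancreas of animal 5. It ran from 0.0206 to 0.0528 in animal 1 and from 0.0302 to 0.0437 in animal 3. The 4 libraries of animal 4 all lay above those of animals 1 and 3, and so did those of animal 5. Animals 2 (0.0199 to 0.159) and 6 (0.0101 to 0.106) spanned both ranges. In the liver the order was different, with animal 1 highest at 0.298 and animal 4 lowest at 0.0328. This pattern was also chosen after the values were seen, and it was not tested.

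**Figure D4:**
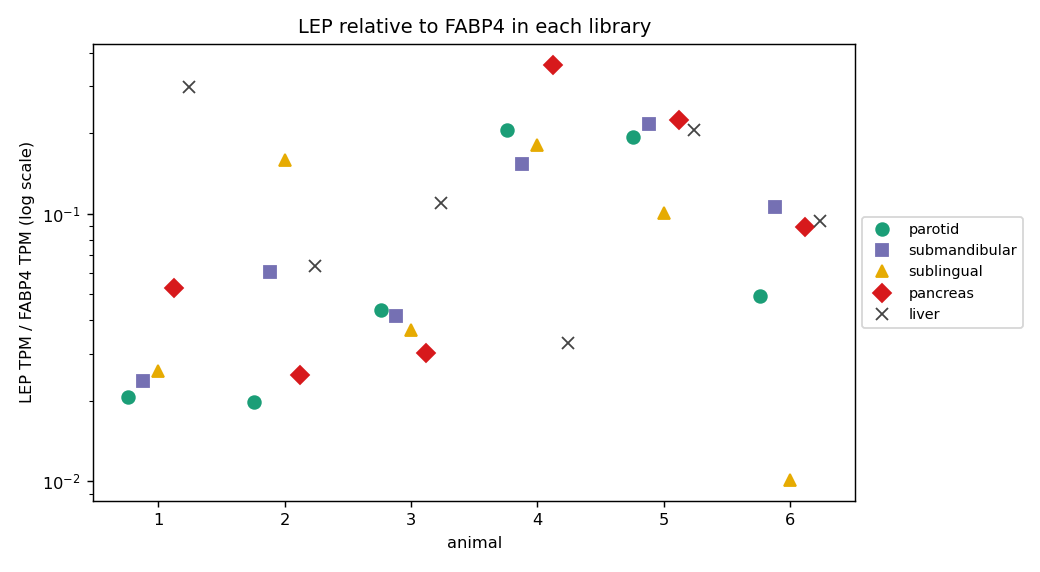
LEP TPM divided by FABP4 TPM (log axis) for each library, by animal, with 1 symbol per tissue. In the libraries labelled as glands and pancreas, animals 4 and 5 lie at 0.1003 to 0.360 and animals 1 and 3 at 0.0206 to 0.0528, and the liver does not follow that order.

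The 2 libraries of animal 4 differed in composition from each other and from the pancreas of animal 3. LEP per ADIPOQ was 12.7 in pancreas and 1.63 in submandibular of animal 4, and 0.479 in pancreas of animal 3. FABP4 per ADIPOQ was 35.2, 10.6 and 15.9 in the same libraries. ADIPOQ itself was higher in the submandibular library of animal 4 (438 TPM) than in its pancreas library (328 TPM), and so was PLIN1 (660 against 323 TPM). With 1 library each, these differences have no replicate.

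The wider adipocyte program was read from 7 lists of related genes (transcription factors, fatty acid and triglyceride synthesis, lipid droplet coat, lipolysis, fatty acid uptake and caveolae, hormones and receptors, brown adipocyte genes) with 64 genes, of which 61 were in the table and 54 were tested. PPARG, the master regulator of adipocyte differentiation, was 122 TPM in pancreas and 106 TPM in submandibular of animal 4 and 18.6 TPM in pancreas of animal 3, and at most 3.58 TPM elsewhere. CFD, the adipokine adipsin, was 4500, 3479 and 274 TPM in the same libraries, with 34.8 to 204 TPM in liver. AQP7, the glycerol channel of fat cells, was 70.8, 103 and 6.44 TPM, and at most 5.65 TPM elsewhere. These 3 genes, like all members but PLIN4, had their 3 highest values in the same 3 libraries.

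Other genes of the program were shared with the liver. CEBPA, a transcription factor of adipocytes and hepatocytes, was 61.4 and 118 TPM in pancreas and submandibular of animal 4, but 17.0 to 62.9 TPM in liver. It was lower than liver in all 4 tissues in limma, by -3.29 in parotid, -2.61 in submandibular, -2.98 in sublingual and -1.87 in pancreas (adjusted p at most 0.0157). Without animal 4 CEBPA was lower in the same 4 tissues, by -3.61, -3.68, -3.33 and -2.60. The fatty acid transporter CD36 was 512 and 665 TPM in the libraries of animal 4, and its parotid level was lower than liver (log2 fold change -2.37, adjusted p = 0.0263). Without animal 4 CD36 was lower than liver in all 4 tissues, from -2.77 in submandibular to -1.51 in pancreas (adjusted p at most 0.0445). The triglyceride lipase PNPLA2 was 923, 656 and 210 TPM in the same 3 libraries and 38.8 to 154 TPM in liver. UCP1, the heat-producing protein that defines brown adipocytes, was between 0 and 3.20 TPM in all 30 libraries. PLIN2 and GPD1 had no row under these symbols in the abundance table.

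Counted together, 42 of the 54 tested genes of those lists (77.8%) were highest in the pancreas library of animal 4, where 66.1% of all genes were. In its submandibular library 51 of 54 (94.4%) were highest, against 87.5% of all genes. In limma, 0 rose and 30 fell in parotid against liver, where 4.61% of all genes rose and 53.4% fell. In submandibular against liver 4 rose (APLN, CAV1, CAVIN1 and PLIN3) and 22 fell, with 5.68% and 45.1% of all genes. In sublingual against liver 3 rose (BSCL2, CIDEA and PLIN3) and 21 fell, with 12.8% and 18.7% of all genes. In pancreas against liver 2 rose (CAV1 and GPIHBP1) and 19 fell, with 6.76% and 23.6% of all genes. There were 16 genes that fell in all 4 tissues, including CEBPA, CEBPB, KLF15, SREBF1, DGAT2, ELOVL6, GPAM, PCK1, SCD and CIDEB, and all 16 were among the 22 that did so without animal 4. The share of all genes that fell in all 4 tissues was not computed, and the 4 comparisons share the liver libraries. No excess of listed genes can therefore be read from the 16 or the 22.

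Without animal 4, 53 of the listed genes were tested. Against the liver, 1 (CKMT2) rose and 34 fell in parotid (68.3% of all genes were called in either direction), and 1 (CAV1) rose and 37 fell in submandibular (74.4%). In sublingual 6 rose (BSCL2, CAV1, CAVIN1, CIDEA, PLIN3 and RETN) and 24 fell (37.3%), and in pancreas 3 rose (ACLY, CAV1 and GPIHBP1) and 28 fell (48.5%). PLIN3, a perilipin made in many cell types, was thus called higher than liver in sublingual with and without animal 4, and in submandibular with it only.

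Against the pancreas, 1 of the listed genes was higher and 6 lower in parotid, beside calls for 15.8% of all genes, and without animal 4 these were 1 and 9, beside 20.8%. In submandibular there were 0 higher and 3 lower (9.71%), and 1 and 8 without animal 4 (30.7%). In sublingual there were 3 higher and 1 lower (13.9%), and 10 and 2 without animal 4 (31.8%).

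Between parotid and submandibular limma called 0 listed genes with 6 animals (0.347% of all genes) and 0 without animal 4 (0.681%). At an unadjusted p under 0.05 there were 3 and 2 listed genes, beside 4.2% and 5.64% of all genes. In parotid against sublingual 2 were higher and 11 lower (41.5%), and 1 and 15 without animal 4 (57.3%). In submandibular against sublingual there were 0 and 5 (27.9%), and 0 and 16 without animal 4 (66.8%).

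Endothelial markers were also highest in the same 3 libraries, while fibroblast and blood markers were highest only in the libraries of animal 4 labelled pancreas and submandibular. Within its tissue, animal 4 was highest for 66.1% of all genes tested in pancreas and for 87.5% in submandibular. The 7 endothelial genes summed to 335 TPM in pancreas and 273 TPM in submandibular of animal 4 and to 55.3 TPM in pancreas of animal 3, while the other 27 libraries ran from 3.59 to 39.0 TPM. PECAM1, an adhesion molecule of endothelium, was 87.9, 85.4 and 14.7 TPM in those libraries. The 6 fibroblast genes summed to 1083, 5000 and 198 TPM, against 25.1 to 285 TPM. The 4 measured blood genes summed to 6001, 5844 and 226 TPM, against 29.7 to 2262 TPM. In the pancreas of animal 3 the fibroblast and blood sums thus lay within the range of the other 27 libraries. The share of these cell types in the values of FABP4 and LPL was not tested.

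The 7 macrophage genes summed to 276 TPM in pancreas and 880 TPM in submandibular of animal 4 and to 66.6 TPM in pancreas of animal 3, and liver alone held 102 to 462 TPM. CD68, a lysosomal protein of macrophages, was 17.7 and 42.1 TPM in the libraries of animal 4 and 35.9 TPM in its sublingual gland. The 6 lymphocyte genes summed to 16.6 TPM in pancreas of animal 4, within the range of the other libraries, and to 109 TPM in submandibular, above it. The 5 smooth muscle genes summed to 4287 and 1800 TPM. The 2 libraries of animal 4 thus shared high endothelial, blood and fibroblast sums with the members, and differed in lymphocyte and fibroblast sums.

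**Figure D5:**
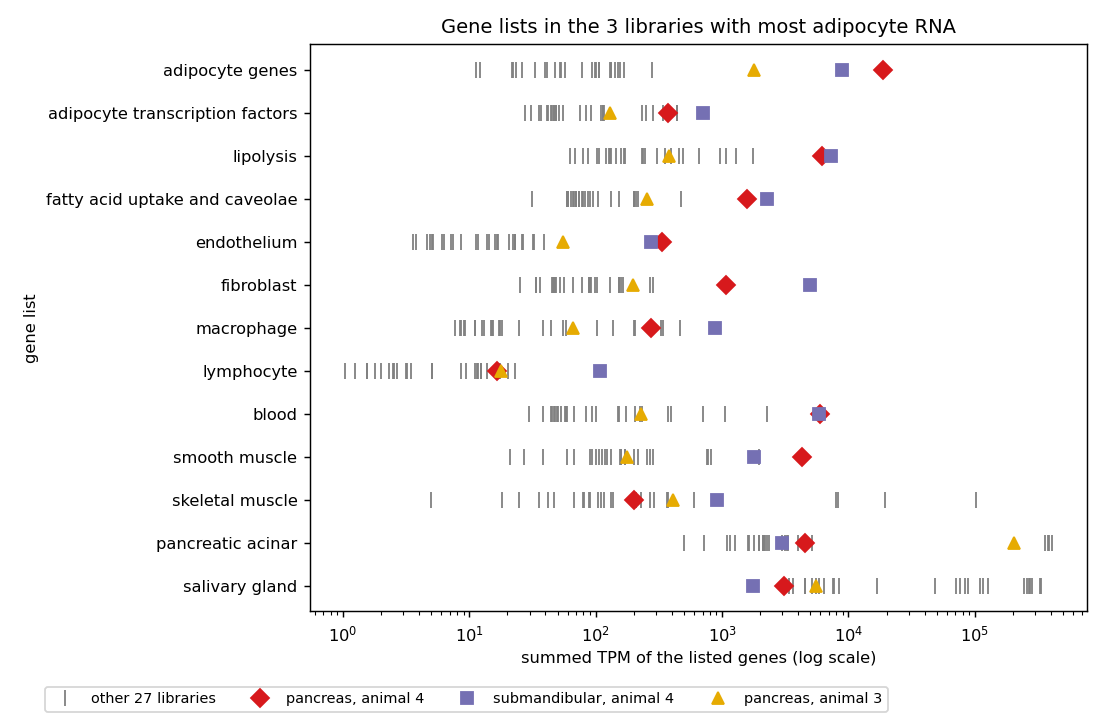
Summed TPM (log axis) of the listed genes for 13 gene lists, with ticks for 27 libraries and symbols for the pancreas and submandibular libraries of animal 4 and the pancreas of animal 3. The adipocyte sum is 18764, 8819 and 1801 TPM in these libraries, and the acinar sum of the pancreas of animal 4 is 4497 TPM against 202707 TPM in that of animal 3.

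At the low end, the members were close to the level at which genes of one tissue appear in others. As a median over the 8 genes, the 27 libraries held 0.0688% to 2.48% of the level in the pancreas library of animal 4, with a median of 0.508%. For comparison, 11 acinar enzyme genes in the 24 libraries other than pancreas held 0.106% to 1.13% (median 0.471%) of their highest pancreas level. For 9 liver genes the 24 libraries other than liver held 0.251% to 0.741% (median 0.499%) of their highest liver level. The references are unlike, because the pancreas library of animal 4 was not the highest library for every member. Its submandibular library held 133% of that level for ADIPOQ, 204% for PLIN1, 173% for LPL and 103% for PLIN4. The shares of these members thus come out larger than they would against their highest library. Within the 27 libraries the members varied by library over a wider range than the liver genes did. Whether part of the low values is RNA carried from other libraries or cells was not tested.

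The genes most like the members were named by the correlation of log2(TPM + 1) with the mean of the 8 members, over 12173 genes outside the lists. The libraries share tissues, animals and the scaling of TPM, so this is a description. Over 30 libraries COL5A3, a collagen chain, was first (Pearson r = 0.96), followed by TIMP4 (0.95), TRARG1 (0.95), ALDOC (0.94), ADGRL4 (0.94), GFPT2 (0.94), SEMA3G (0.93), MCAM (0.93), ECM2 (0.93) and TWIST2 (0.93). Over the 25 libraries without animal 4 GFPT2 was first (0.85), and 8 genes were shared by both lists of 10. TRARG1 was 130 and 219 TPM in the libraries of animal 4, 3.13 TPM in pancreas of animal 3 and 0.533 TPM at the median of the other 27. ALDOC, an aldolase, was 960 and 484 TPM in the libraries of animal 4, and 49.8 TPM and 5.87 TPM in the same further places.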

How the data were processed

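The authors deposited 1 table of TPM values with 21292 gene rows and 1 column for each of the 30 libraries (0 columns unused). It was made with kallisto, per the submitters' processing notes. The version, the transcriptome and the step from transcripts to genes are not given in the sources used here, and no genome coordinates are printed. TPM carries no read depth, so no counting interval or detection limit is given. A share of a fixed total also falls when a few genes take more of it.

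The tool for all tests was limma 3.58.1, run in R 4.3.3. It was given log2(TPM + 1), a scale on which fold changes of low genes come out too small. Genes needed at least 1 TPM in at least 6 libraries. All 30 libraries were fitted together with tissue and animal as terms, and the threshold was an adjusted p of 0.05. The labels give the animal of each library, which pairs the tissues. Deviations from the tissue means had a mean correlation of 0.161 between tissues of the same animal and of -0.0186 between animals. The highest correlation between 2 libraries was 0.979, so none was a copy of another. The method was tested on simulated data with independent noise of capped spread, no animal effect and no library set far apart. That test did not cover a spread as wide as that of the members.

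The members, the gene lists and the tests were chosen with earlier results of these data known. Values are printed for all 8 members in each tissue, limma values for called members and for ADIPOQ and PLIN1 in every comparison, values for 11 further genes where measured, and the 10 genes most correlated with the members. Alternatives covered the animal block, 3 scalings, filters, the pseudocount, the limma trend, the libraries fitted and each animal left out. The scalings of the summed levels without animal 4, and the TMM and 2-tissue fits without animal 4, were added after seeing the data. Baboon libraries of the same study are not analysed here.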

Additional observations from a re-analysis of the deposited data

Results flagged for a closer look

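Each set of 6 libraries, for 8 genes in 5 tissues, was examined for a library set far apart from the rest by Dixon's criterion on log2(TPM + 1). Of 40 sets, 10 had such a library. Chance alone flags about 1 in 20 independent sets, but these sets are not independent, since the 8 genes were read in the same 30 libraries. The submandibular library of animal 4 was set apart for 7 of 8 genes, LEP (713 TPM), CIDEC (1055 TPM), ADIPOQ (438 TPM), PLIN1 (660 TPM), LPL (571 TPM), PLIN4 (325 TPM) and LIPE (409 TPM). In pancreas, animal 4 was set apart for PLIN4 (315 TPM). For the other genes of the pancreas, animal 3 stood between animal 4 and the rest. The remaining sets were PLIN4 in the sublingual gland, where animal 5 was high (22.2 TPM), and PLIN1 in the sublingual gland, where animal 6 was low (0.516 TPM). On TPM itself animal 4 was set apart for 8 of 8 genes in both submandibular and pancreas. The share of all genes tested that Dixon's criterion sets apart in these libraries was not computed. Animal 4 was highest for 87.5% of all genes in submandibular and for 66.1% in pancreas. The counts of flagged members thus do not show that the members differ from other genes. The tissue differences of the 4 females and 2 males were compared by sign only, in 80 cases, and in 0 of them did every female have a sign opposite to that of every male. That criterion does not look at the size of a difference, so it does not show that the sexes were alike, and a difference between them was not tested.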

How the results depend on the processing

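Of 180 further counts of called members, 147 stayed at their main value or within 1.5 times it and 33 did not. The share of all genes called also moved with the setting. Genes called higher in parotid than in liver, for example, went from 4.61% to 21% under TMM scaling. The 2-tissue fit of submandibular and liver without animal 4 called 84.1% of all genes. A higher count below thus does not by itself set the members apart from other genes. In parotid against liver (0 called) the count became 1 under TMM scaling, quantile normalization, scaling without the 100 most abundant genes and without the pancreas and submandibular libraries of animal 4, 2 with only the 12 libraries of both tissues, and 0 to 1 with each animal left out. In submandibular against liver (1 called) it became 0 without the filter, 3 under TMM scaling and quantile normalization, 4 without the 100 most abundant genes, 2 without those libraries of animal 4, and 0 to 2 with each animal left out. In pancreas against liver (0 called) it became 3, 3 and 4 under the 3 scalings, 1 with a filter of 5 TPM or a pseudocount of 0.1, and 0 to 1 with each animal left out. With only the 12 libraries it became 4 in sublingual against liver and 1 in parotid against sublingual, and without the 100 most abundant genes it became 1 in submandibular against sublingual. Without the animal block, which otherwise pairs the tissues, the count was 0 in submandibular against liver, and that changed no other count of called members. Without animal 4, TMM scaling gave 1 in parotid and in pancreas against liver, and fits of only the libraries of both tissues gave 1 in parotid, 4 in submandibular, 1 in sublingual and 2 in pancreas against liver, 1 in submandibular against pancreas and 2 in submandibular against sublingual.

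The median sum without the 100 most abundant genes was 373 in parotid, 273 in sublingual and 90.3 in liver, and without animal 4 it was 176, 285 and 97.4.

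The sign of a log2 fold change turned in 33 cases, none of which was past the threshold in the reported fit. PLIN1 in submandibular against liver (-0.25) was 0.46 under TMM scaling, 0.58 under quantile normalization, 0.89 under scaling without the 100 most abundant genes and -1.52 to 0.13 with each animal left out. PLIN1 in pancreas against liver (0.21) was -0.72 on leaving out those libraries of animal 4 and -0.76 to 0.72 with each animal left out. ADIPOQ in submandibular against pancreas (-0.41) was 0.29 under scaling without the 100 most abundant genes and -0.96 to 0.21 with each animal left out. PLIN1 in submandibular against pancreas (-0.46) was 0.070 under scaling without the 100 most abundant genes and -0.75 to 0.071 with each animal left out. PLIN1 in parotid against submandibular (-1.19) was 0.047 on leaving out those libraries of animal 4 and -1.61 to 0.031 with each animal left out. ADIPOQ in parotid against sublingual (-0.45) was 0.27 under TMM scaling, 0.27 under quantile normalization and 0.53 under scaling without the 100 most abundant genes. PLIN1 in parotid against sublingual (-0.60) was 0.20 under TMM scaling, 0.20 under quantile normalization and 0.57 under scaling without the 100 most abundant genes. ADIPOQ in submandibular against sublingual (0.86) was -0.34 on leaving out those libraries of animal 4 and -0.33 to 1.49 with each animal left out. PLIN1 in submandibular against sublingual (0.58) was -0.65 on leaving out those libraries of animal 4 and -0.63 to 1.08 with each animal left out. Over 5 animals without animal 4, TMM scaling gave -0.23 for PLIN1 in pancreas against liver, and 0.30 for ADIPOQ and 0.26 for PLIN1 in parotid against sublingual. Fits of only both tissues then gave -0.76 for PLIN1 in pancreas against liver, 0.031 for PLIN1 in parotid against submandibular, and -0.33 for ADIPOQ and -0.63 for PLIN1 in submandibular against sublingual. Depth limits could not be set from TPM.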
